A study of Mus musculus with 18 samples.

Results

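The erythroid miRNAs mmu-miR-451a, mmu-miR-144-3p, mmu-miR-144-5p and mmu-miR-486a-5p were followed through magnetically sorted mouse brain cells, as a reading of blood RNA in the sorted fractions. They were chosen by name from the mature miRNA entries of the count table, and the 4 entries stand among 1054 mature miRNA entries and 86922 features of any kind that had at least 1 count. The samples were small RNA libraries of microglia, astrocytes and neurons from brains of mice aged 10 months. For each fraction there were 3 libraries of wild-type mice (WT) and 3 of homozygous Atxn2-CAG100-KIN mice (KIN), which makes 6 groups and 18 libraries. KIN animals carry an expanded CAG repeat in the mouse Atxn2 gene itself, so that every cell type bears it, and serve as a model of spinocerebellar ataxia type 2. Both genotypes were on a C57BL/6 background and were compared as littermates. In the study's protocol the dissociated brain went through debris removal and a red blood cell lysis step. Microglia were then bound with CD11b beads and astrocytes with ACSA-2 beads, while neurons were what remained after non-neuronal and CD31-bearing cells had been held back. The neuronal fraction was therefore never selected by a marker of its own, and flushing of the vessels before dissection is not described in the sources used here.

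Red cells lose their nucleus as they mature and keep a small set of RNAs, chiefly haemoglobin messages and a few miRNAs. miR-144 and miR-451 are cut from a shared primary transcript that the erythroid factor GATA1 drives. miR-451 is unusual in that its short hairpin skips Dicer and is trimmed by Argonaute 2 instead, while miR-144 passes through Dicer and tunes the oxidative stress response of red cells. miR-486 comes from an intron of Ank1, which encodes the ankyrin of the red cell membrane skeleton, and is abundant in both erythroid and striated muscle cells.

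The mature sequences are shown because they decide which reads each entry could collect. Capitals mark the seed, bases 2 to 8, which pairs with target messages.
mmu-miR-451a: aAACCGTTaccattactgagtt
mmu-miR-144-5p: gGATATCAtcatatactgtaagt
mmu-miR-144-3p: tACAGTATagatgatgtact
mmu-miR-486a-5p: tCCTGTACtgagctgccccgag
mmu-miR-486b-5p: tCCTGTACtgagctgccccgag
mmu-miR-486a-3p: cGGGGCAGctcagtacaggat
No other entry among the 1978 mature miRNAs of the table shared the seed of miR-451a, miR-144-5p or miR-144-3p, so the members fell into 4 seed groups of their own. mmu-miR-486a-5p and mmu-miR-486b-5p were the same in all 22 bases, and a read of that sequence could not be told apart between them. The 5p and 3p products of miR-486 matched on opposite strands over 20 of 20 bases, and the counting ignored strand.

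Both hairpins of the miR-144/451 pair lie on chromosome 11, on the plus strand of GRCm39, within exons of the long non-coding gene Gm57805. Mir144 spans chr11:77963831-77963896 and Mir451a spans chr11:77963996-77964067, with 99 bases between them. Mir451b is annotated on the minus strand of the same interval as Mir451a. Mir486 lies at chr8:23632571-23632698 in an intron of Ank1, and Mir3107, the host of miR-486b, overlaps it on the minus strand at chr8:23632589-23632678. The RefSeq hairpins below show how differently the 2 genes of the pair are built, with the mature products in capitals.
Mir144: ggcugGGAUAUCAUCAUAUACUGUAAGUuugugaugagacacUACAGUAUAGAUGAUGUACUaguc
Mir451a: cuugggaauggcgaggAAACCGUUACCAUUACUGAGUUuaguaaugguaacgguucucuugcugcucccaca
Mir144 yields a product from each arm, whereas the product of Mir451a, bases 17 to 38 of the hairpin, runs from the 5′ arm into the loop.

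Reads were placed first on mature sequences and only then on longer RNAs, with no read under 20 bases kept, so each erythroid locus was counted in several places. The miR-451 locus held 4825 counts over all libraries, of which mmu-miR-451a took 55.3%, the Mir451a hairpin 22.3% and Mir451b 22.4%. The share of the mature entry lay between 47.0% and 63.7% in the single libraries. The mature entry mmu-miR-451b stood at 0 in every library. Since Mir451a and Mir451b cover the same bases and strand was not used, their split cannot be told apart from shared reads. The miR-486 locus held 1780 counts, and its identical entries divided evenly, with mmu-miR-486b-5p at 49.4% of the counts of the pair (95% exact binomial interval 46.0% to 52.8%, counting error only). A count of mmu-miR-486a-5p alone is therefore about the share that an even division between both 5p entries would leave it. The entries mmu-miR-486a-3p and mmu-miR-486b-3p held 306 and 260 counts. Since strand was not used, 5p reads among these cannot be told apart.

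Library totals ran from 1211118 to 4316748 counts, and were lowest in the neuronal fraction, at 1211118 to 2427384. Mature miRNAs made up 5.05% to 10.3% of the astrocyte libraries, 5.09% to 8.45% of the microglia libraries and 0.964% to 2.13% of the neuronal libraries. The microglia and astrocyte labels were borne out by their defining transcripts. The 8 microglia genes summed to 116 to 162 counts-per-million of the library total (CPM) in WT microglia and 0.502 to 2.86 CPM in WT astrocytes, and the 8 astrocyte genes to 306 to 368 CPM in WT astrocytes and 4.03 to 11.5 CPM in WT microglia. The neuronal label was not clearly borne out. The 8 neuronal genes reached 22.5 to 35.5 CPM in WT neurons and 8.04 to 28.0 CPM in WT astrocytes, while the neuronal miRNAs miR-124-3p and miR-128-3p summed to 47.9 to 209 CPM in WT neurons and 1263 to 3030 CPM in WT astrocytes. A pair of libraries stood apart in the erythroid miRNAs, KIN microglia replicate 2 and WT neurons replicate 2, and results that rest on them are given with and without them. Atxn2, the altered gene, had 0 to 10 counts per library in these small RNA libraries, which checks nothing about the genotype.

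mmu-miR-451a, the most abundant member, was detected in all 18 libraries with 52 to 547 counts. In WT astrocytes it had 60, 129 and 71 counts, or 19.1, 32.4 and 21.6 CPM. In KIN astrocytes it had 82, 52 and 200 counts, or 23.8, 14.5 and 53.7 CPM. Both astrocyte groups overlapped, with the widest spread among KIN libraries. In WT microglia it had 57, 67 and 75 counts, or 16.4, 19.3 and 20.5 CPM, the tightest of the 6 groups. In KIN microglia it had 81, 508 and 133 counts, or 25.7, 118 and 31.0 CPM, all above the WT microglia values and with replicate 2 far above the others. In WT neurons it had 144, 547 and 96 counts, or 119, 279.6 and 62.8 CPM. In KIN neurons it had 164, 93 and 107 counts, or 70.0, 38.3 and 44.1 CPM, which overlapped the WT neurons at their lower end.

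Ordered by mean level, miR-451a stood at 154 ± 112 CPM in WT neurons, 58.1 ± 51.6 CPM in KIN microglia and 50.8 ± 16.9 CPM in KIN neurons (SD, n = 3 each). Below these came KIN astrocytes at 30.7 ± 20.5 CPM, WT astrocytes at 24.3 ± 7.09 CPM and WT microglia at 18.7 ± 2.08 CPM (SD, n = 3 each). Every group overlapped its neighbour in this order, so no step between neighbours exceeded the spread of the libraries. In a bulk fraction, fewer cells of a type and less RNA per cell cannot be told apart.

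**Figure D1:**
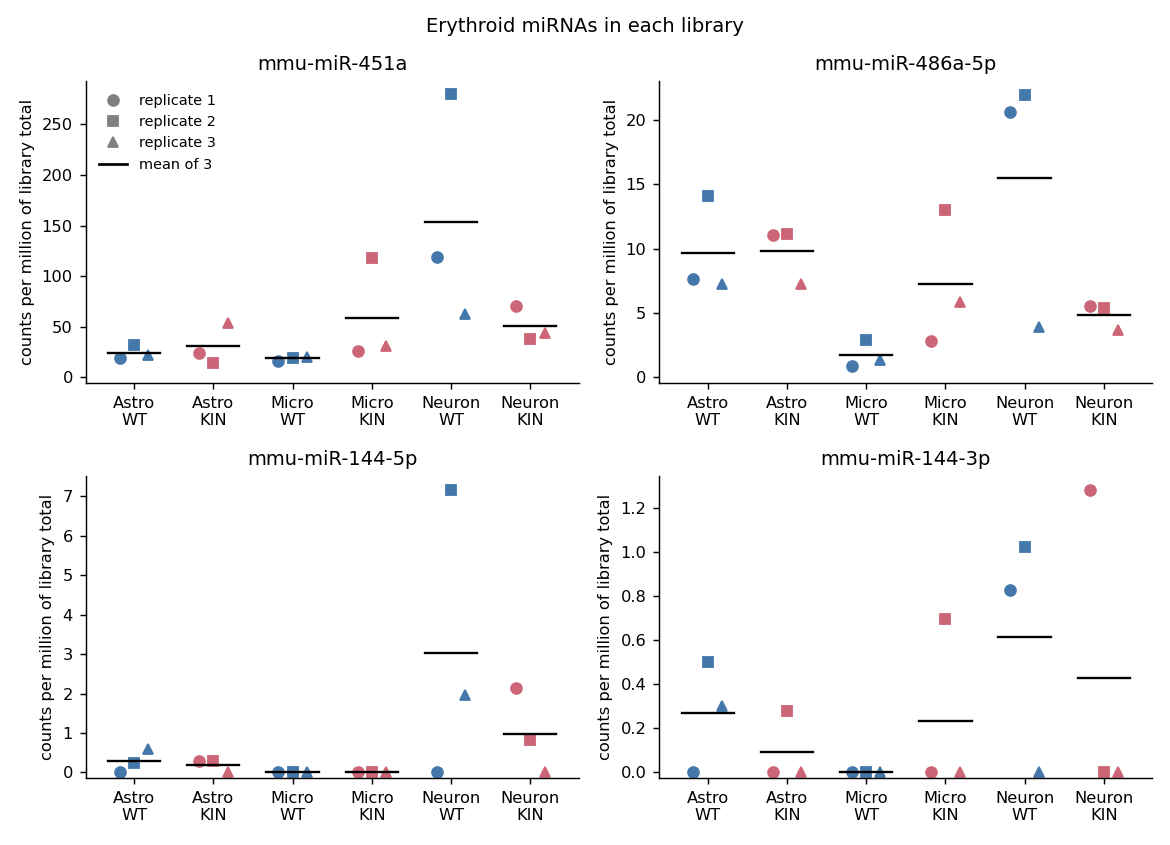
Level of each erythroid miRNA in counts-per-million of the library total, by fraction and genotype, with 1 point per library (blue WT, red KIN, marker shape for the replicate number) and a bar at the mean of 3. mmu-miR-451a reached 279.6 CPM in WT neurons replicate 2 and 118 CPM in KIN microglia replicate 2, while both miR-144 products stayed near 0 in nearly every library.

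The picture of the neuronal fraction depended on what the level was compared with. In counts-per-million of the mature miRNA counts, miR-451a reached 12334, 14478 and 5808 in WT neurons and 3287, 2883 and 2750 in KIN neurons. The astrocyte and microglia libraries held 159 to 1392 on the same scale, so every neuronal library lay above every glial library and the WT and KIN neurons did not overlap. How many other features separated in this way was not counted. In the genotype test given below, scaled to mature miRNA counts, 0 of 3 members and 26 of 4535 features were called in neurons. Among the mature miRNAs ranked by count, miR-451a stood at places 17 to 51 in the neuronal libraries, 71 to 141 in microglia and 111 to 172 in astrocytes. The neuronal libraries held proportionally fewer mature miRNAs of all kinds, as given above, and the part of that smaller denominator in these values was not tested.

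**Figure D2:**
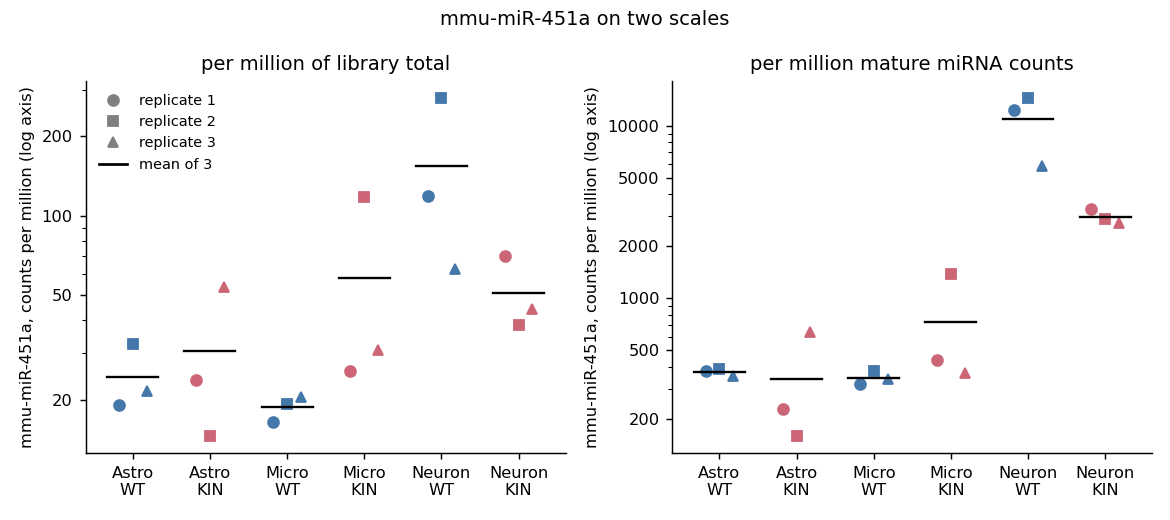
mmu-miR-451a in each library on log axes, in counts-per-million of the library total on the left and in counts-per-million of the mature miRNA counts on the right (blue WT, red KIN, marker shape for the replicate number, bar at the mean of 3). On the left each group overlapped its neighbour in the order of means, and on the right the neuronal libraries, at 2750 to 14478, all lay above the glial libraries, at 159 to 1392.

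mmu-miR-486a-5p, an miRNA of red cells and striated muscle, was present in all 18 libraries but at 3 to 56 counts. It had 24, 56 and 24 counts in WT astrocytes and 38, 40 and 27 counts in KIN astrocytes, which overlapped. It had 3, 10 and 5 counts in WT microglia and 9, 56 and 25 counts in KIN microglia, where replicate 2 again stood highest. The WT and KIN microglia met at their edges, with 2.88 CPM in the highest WT library and 2.86 CPM in the lowest KIN library. It had 25, 43 and 6 counts in WT neurons and 13, 13 and 9 counts in KIN neurons, with the KIN values inside the WT range. By mean level the order was WT neurons at 15.5 ± 10.1 CPM, KIN astrocytes at 9.82 ± 2.22 CPM, WT astrocytes at 9.66 ± 3.82 CPM, KIN microglia at 7.22 ± 5.20 CPM, KIN neurons at 4.87 ± 1.01 CPM and WT microglia at 1.70 ± 1.05 CPM (SD, n = 3 each). Only the last step, from KIN neurons to WT microglia, separated neighbours without overlap.

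The miR-144 products, made from the same primary transcript as miR-451, were close to absent. mmu-miR-144-5p had 29 counts in all, 24 of them in the neuronal fraction, where the WT libraries held 0, 14 and 3 counts and the KIN libraries 5, 2 and 0. Astrocyte libraries held 0 to 2 counts of it and the microglia libraries none. mmu-miR-144-3p had 13 counts in all and at most 3 in any library. Its mature sequence has 20 bases and reads under 20 bases were not kept, so any shorter form of it went uncounted. A count of 0 allows a level of up to 3 counts, which was 0.754 to 0.954 CPM in the astrocyte libraries, 0.695 to 0.953 CPM in microglia and 1.24 to 2.48 CPM in neurons. No read of any miR-144 product was counted in the 3 WT microglia libraries, in 10613069 counts together, which allows up to 0.283 CPM. The library with the most miR-144-5p, WT neurons replicate 2, was also the library with the most miR-451a, at 14 and 547 counts. Yet KIN microglia replicate 2, with 508 counts of miR-451a, held 0 counts of miR-144-5p and 3 of miR-144-3p.

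Fragments of haemoglobin messages, the other hallmark of red cell RNA, were counted almost wholly in the neuronal fraction. The transcripts of the beta chain genes Hbb-bs and Hbb-bt and the alpha chain genes Hba-a1 and Hba-a2 together held 685 counts, of which 665 (97.1%) lay in neuronal libraries and 20 in the 12 glial libraries. WT neurons had 169, 94 and 136 haemoglobin counts, or 92.2 ± 45.8 CPM, and KIN neurons had 104, 116 and 46, or 37.0 ± 15.8 CPM (SD, n = 3 each). Each glial library had 0 to 6. Members of the alpha and beta gene pairs are near-identical, so the division among them is uncertain. The whole list of 22 erythroid genes, 19 of them in the table, summed to 51.1 to 144 CPM in WT neurons and 21.9 to 50.7 CPM in KIN neurons, against at most 6.36 CPM in any glial library. Defining red cell genes other than haemoglobin were scarce or at 0: Epor, the erythropoietin receptor, and Rhd, a red cell surface protein, had no count in any library.

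miR-451a and haemoglobin therefore did not keep a fixed ratio. Within the neuronal fraction there were 85.2, 582 and 70.6 counts of miR-451a per 100 haemoglobin counts in the WT libraries and 158, 80.2 and 233 in the KIN libraries. WT neurons replicate 2 combined the highest miR-451a with the lowest haemoglobin count of its group. KIN microglia replicate 2 held 508 counts of miR-451a beside 1 haemoglobin count. In the astrocytes, 52 to 200 counts of miR-451a stood beside 0 to 2 of haemoglobin.

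**Figure D3:**
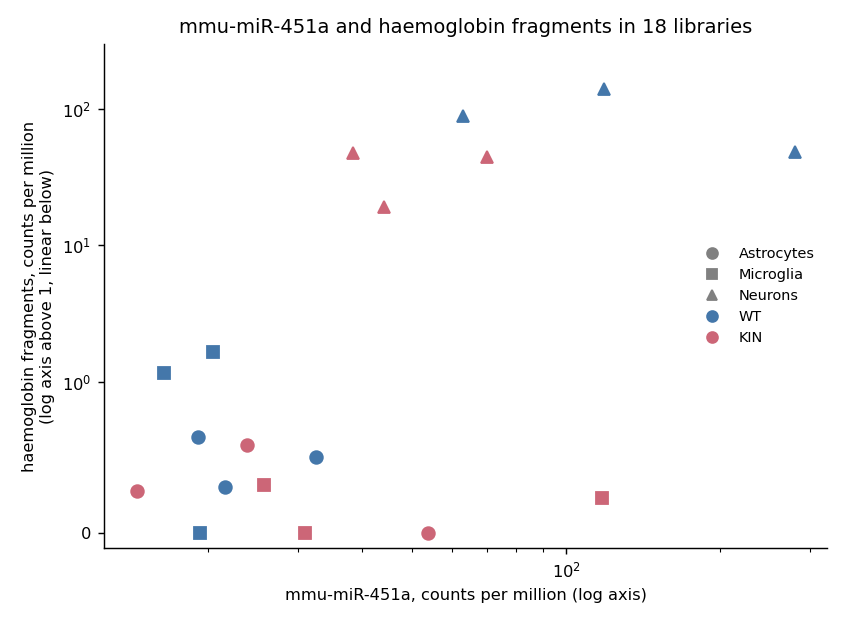
mmu-miR-451a on the horizontal log axis against the summed haemoglobin fragments on the vertical axis, which is logarithmic above 1 and linear below, both in CPM, for 18 libraries (marker shape for the fraction, blue WT, red KIN). All neuronal libraries lay at 19.0 CPM of haemoglobin or above, while the glial libraries lay at 1.64 CPM or below across their whole range of miR-451a.

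The balance between miR-451a and miR-486-5p is given as a description, since this ratio was chosen after its values were seen. Adding the identical entries mmu-miR-486a-5p and mmu-miR-486b-5p, there were 1.36, 1.11 and 1.54 counts of miR-451a per count of miR-486-5p in WT astrocytes and 1.17, 0.79 and 3.23 in KIN astrocytes. In WT microglia the ratio was 8.14, 4.19 and 4.69, and in KIN microglia 5.40, 4.06 and 3.41. In WT neurons it was 3.79, 6.08 and 6.40, and in KIN neurons 7.45, 3.10 and 4.28. Every microglia library lay above every astrocyte library, and among the neuronal libraries only KIN replicate 2 fell below the highest astrocyte library. The mean ratio was 1.53 ± 0.87 in astrocytes, 4.98 ± 1.69 in microglia and 5.18 ± 1.71 in neurons (SD, n = 6 each).

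On the log2 scale the mean ratio of microglia was 1.79 ± 0.33 above that of astrocytes (SE), or 3.46-fold, and that of neurons 1.84 ± 0.34 above it, or 3.58-fold. Neurons and microglia differed by 0.05 ± 0.27. With every product of each locus summed the differences were 1.77 ± 0.26, 1.81 ± 0.35 and 0.04 ± 0.27 for the same pairs. These SEs pool both genotypes and treat the fractions as independent, although the study isolated them in turn from each brain.

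**Figure D4:**
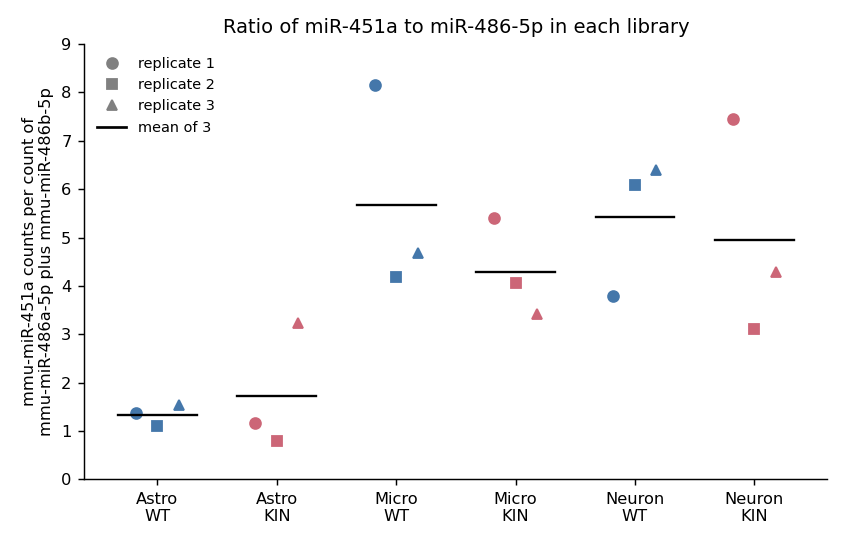
Counts of mmu-miR-451a per count of miR-486-5p (both identical entries added) in each library, by fraction and genotype, with a bar at the mean of 3. The astrocyte libraries sat at 0.79 to 3.23, the microglia libraries at 3.41 to 8.14 and the neuronal libraries at 3.10 to 7.45.

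The study asked how the KIN mutation changes RNA in each cell fraction. In the genotype comparisons, no erythroid miRNA passed the test in any fraction, while the direction of miR-451a and miR-486a-5p was upward in microglia and downward in neurons. Calls were made with edgeR's quasi-likelihood test at a Benjamini-Hochberg adjusted p of at most 0.05 over all features tested and a log2 fold change of at least 1 in either direction. A feature was tested where at least 2 libraries of the fit had 5 counts. By that filter miR-451a and miR-486a-5p were tested in each of the 12 comparisons, miR-144-5p in neurons and in the comparisons of genotype effects, and miR-144-3p in none. The comparisons share libraries with one another.

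In astrocytes, where 8.18% of all features tested were called, 0 of 2 members tested were called, 0 had an unadjusted p under 0.05 and DESeq2 called 0. miR-451a differed by 0.45 ± 0.44 on the log2 scale (SE, KIN over WT, edgeR adjusted p = 0.498) and miR-486a-5p by 0.13 ± 0.36 (edgeR adjusted p = 0.834). Neither sign was stable: miR-451a gave -0.24 without KIN astrocytes replicate 3, and miR-486a-5p gave -0.061 and -0.075 without WT astrocytes replicate 1 and 3. The astrocyte genes themselves summed to 306 to 368 CPM in WT and 88.6 to 119 CPM in KIN astrocytes, and their part in these values was not tested.

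In microglia, edgeR called 4.35% of all features tested and 0 of 2 members, while DESeq2 called 379 of 4938 features and 2 members. Both members had an unadjusted p under 0.05 in edgeR, where 1250 of 4940 features had one of at most 0.05. For miR-451a the KIN over WT difference was 1.80 ± 0.50 on the log2 scale (SE), and its adjusted p was 0.0723 in edgeR and 0.0092 in DESeq2. For miR-486a-5p it was 2.23 ± 0.64, and the adjusted p was 0.0757 in edgeR and 0.0194 in DESeq2. Of the 7 other products of the miR-451 and miR-486 loci tested, all had positive values and 1 was called. These products overlap or share sequence within a locus and are not separate observations. The Mir486 hairpin, with 2, 1 and 1 counts in WT and 5, 37 and 8 in KIN, stood at 3.50 ± 0.83 (edgeR adjusted p = 0.0473). It passed the count filter only through the KIN libraries, so the direction of its call was nearly fixed in advance and is no test of a rise. The uncalled products ran from 0.33 ± 0.79 for mmu-miR-486b-3p and 0.91 ± 0.60 for mmu-miR-486a-3p to 2.01 ± 0.74 for mmu-miR-486b-5p. Without KIN microglia replicate 2, miR-451a fell to 0.87 (edgeR adjusted p = 0.19) and miR-486a-5p to 1.58 (edgeR adjusted p = 0.23). In that fit 10 of 4690 features were called. Both members were called by edgeR without WT microglia replicate 2 (1.94 and 2.97), where 940 of 4856 features were called. They were also called without KIN microglia replicate 1 (2.11 and 2.54), where 314 of 4913 features were called. The number of calls over all features thus changed with the library left out as well. KIN microglia replicate 2 carried 1 haemoglobin count and KIN microglia as a group 0 to 1, against 4, 0 and 6 counts in WT microglia. The microglia genes summed to 116 to 162 CPM in WT and 68.9 to 104 CPM in KIN microglia, and their part in the result was not tested.

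In neurons, where 0.0% of all features tested were called and 197 passed 0.05 only before adjustment in edgeR, that tool called 0 of 3 members, 2 had an unadjusted p under 0.05, and DESeq2 called 0. On the log2 scale miR-451a differed by -1.61 ± 0.52, miR-486a-5p by -1.68 ± 0.60 and miR-144-5p -1.70 ± 1.10 (SE, edgeR adjusted p = 0.917 each). Each of the 7 haemoglobin transcripts tested had a negative value and none was called by edgeR, from -0.71 ± 1.06 for a retained-intron transcript of Hba-a1 to -1.61 ± 0.55 for the main transcript of Hbb-bs, and their part in the result was not tested. Without WT neurons replicate 2 the differences were -0.90 for miR-451a and -1.33 for miR-486a-5p, and the summed products of the miR-144 locus gave 0.31. WT neurons held 8 to 193 counts of a list of miRNAs of tissues outside the brain, with the highest value in replicate 2, and neuronal genes summed to 22.5 to 35.5 CPM in WT and 11.9 to 18.6 CPM in KIN neurons. The part of both in the result was not tested.

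**Figure D5:**
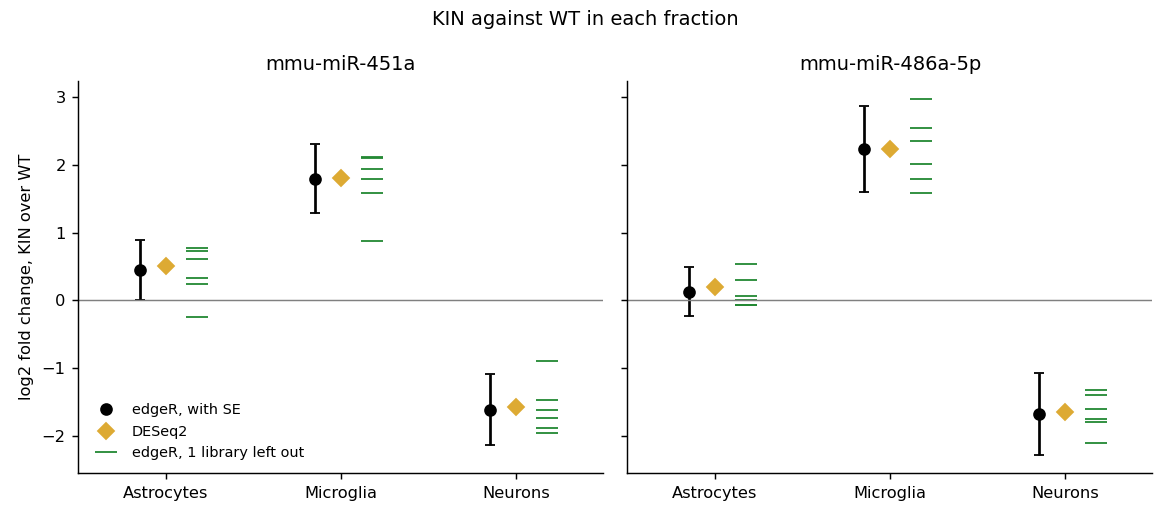
Log2 fold change of KIN over WT for mmu-miR-451a (left) and mmu-miR-486a-5p (right) in each fraction: black points with SE from edgeR, yellow diamonds from DESeq2, green dashes from edgeR with 1 library left out at a time. In edgeR miR-451a stood at 0.45 in astrocytes, 1.80 in microglia and -1.61 in neurons.

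The genotype effects were then compared between fractions in 1 fit of all 18 libraries. Between neurons and microglia, where 1.23% of all features tested were called, 2 of 3 members tested were called. The effect on miR-451a was lower in neurons than in microglia by -3.32 ± 0.79 on the log2 scale (SE, edgeR adjusted p = 0.0318), and that on miR-486a-5p by -3.78 ± 0.88 (edgeR adjusted p = 0.0272). Of the 7 other products of the miR-451 and miR-486 loci tested, again not separate observations, 1 was called, the Mir486 hairpin at -4.62 ± 1.02. The others ran from -1.21 for mmu-miR-486b-3p to -3.19 for mmu-miR-486b-5p, which has the sequence of mmu-miR-486a-5p and was not called (edgeR adjusted p = 0.10). These calls rested on few libraries: without KIN microglia replicate 2 the values were -2.31 and -3.07, without both libraries that stood apart -1.74 and -2.91, and neither was called in either case (edgeR adjusted p = 0.16 to 0.30). Over all features those fits called 15 of 8074 and 26 of 7955, against 101 of 8204 with every library. Leaving out WT microglia replicate 1 or 3, or KIN neurons replicate 3, also ended both member calls, with 26 of 7973, 22 of 7914 and 54 of 7929 features called. Leaving out KIN neurons replicate 2 ended the call of miR-451a and KIN neurons replicate 1 that of miR-486a-5p. Over the single libraries left out the values ran from -3.81 to -2.31 for miR-451a and from -4.54 to -3.07 for miR-486a-5p, and with all products of the locus summed the miR-451 value, -2.99, was not called.

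The remaining contrasts of genotype effects gave no call. Between microglia and astrocytes, where 0.146% of all features tested were called by edgeR, it called 0 of 3 members and DESeq2 called 0. An unadjusted edgeR p under 0.05 was reached by 1 member, and 594 of 8204 features had one of at most 0.05. miR-451a gave 1.37 ± 0.78 (edgeR adjusted p = 0.826) and miR-486a-5p 2.11 ± 0.84 (edgeR adjusted p = 0.498). Between neurons and astrocytes, where 0.0% were called by edgeR, it called 0 of 3 members and DESeq2 called 0. An unadjusted edgeR p under 0.05 was reached by 2 members, and 749 of 8204 features had one of at most 0.05. The values were -1.95 ± 0.78 for miR-451a, -1.67 ± 0.81 for miR-486a-5p and -1.19 ± 2.17 for miR-144-5p. No estimate for miR-144-5p is given where microglia enter, since those libraries held no count.

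Comparing fractions within a genotype asked where the erythroid miRNAs were richest. The fits treat the fractions as independent, although they were sorted in turn from each brain, because the labels do not say which libraries share one. In WT brains, neurons exceeded both glial fractions in miR-451a, and microglia were lowest in miR-486a-5p. Against WT astrocytes, where 28.7% of all features were called, 1 of 2 members was called in WT neurons: miR-451a was higher by 2.45 ± 0.59 on the log2 scale (SE, edgeR adjusted p = 0.017), while miR-486a-5p gave 0.46 ± 0.63. The call on miR-451a was lost without WT astrocytes replicate 1 (2.30, edgeR adjusted p = 0.057) or replicate 3 (2.38, edgeR adjusted p = 0.063). Against WT microglia, where 28.0% were called, both members tested were higher in WT neurons, miR-451a by 2.82 ± 0.55 (edgeR adjusted p = 0.0044) and miR-486a-5p by 2.92 ± 0.74 (edgeR adjusted p = 0.016). The call on miR-486a-5p was lost without WT microglia replicate 1 (2.46) or replicate 3 (2.64). Between WT microglia and WT astrocytes, where 31.5% were called, 1 of 2 members was called: miR-486a-5p fell by 2.36 ± 0.57 (SE, edgeR adjusted p = 0.0087) in microglia, while miR-451a gave -0.27 ± 0.35, and 0.22 without WT astrocytes replicate 2.

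The other products of these loci were fitted in the same comparisons. Products of the same locus overlap or share sequence, as given above, so they are not separate observations. In WT microglia against WT astrocytes, where 31.5% of all features were called, 3 of 3 tested miRNAs of the miR-486 locus fell, with -2.46 for mmu-miR-486a-3p, -2.45 for mmu-miR-486b-3p and -2.16 for mmu-miR-486b-5p. In WT neurons against WT microglia these were higher by 2.04, 2.17 and 2.58, and the Mir451a hairpin by 2.67. Against WT astrocytes, the Mir451a hairpin was higher in WT neurons by 2.13 and Mir451b by 2.03, and 0 of the 3 miRNAs of the miR-486 locus were called. Of the erythroid transcripts, 6 of 7 tested features were called higher in WT neurons than in WT astrocytes and 6 of 6 than in WT microglia. All were transcripts of the haemoglobin genes, and 28.7% and 28.0% of all features were called in these comparisons. Each haemoglobin gene had at most 2 counts in any glial library, so these features passed the count filter only through the neurons. Their tallies were thus nearly fixed by the filter and are no test of enrichment. In KIN microglia against KIN astrocytes, where 35.3% were called, mmu-miR-486a-3p fell by 1.45 ± 0.47 and mmu-miR-486b-3p by 2.01 ± 0.56 (SE, edgeR adjusted p = 0.027 and 0.013), while mmu-miR-486b-5p gave -0.15 ± 0.57. In KIN neurons against KIN astrocytes, where 46.3% were called, mmu-miR-486b-3p fell by 1.14 ± 0.41 (SE, edgeR adjusted p = 0.018).

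In KIN brains no erythroid miRNA was called higher in neurons. Against KIN astrocytes, where 46.3% of all features were called, 1 of 2 members was called in KIN neurons, and it was lower: miR-486a-5p fell by 1.25 ± 0.39 (SE, edgeR adjusted p = 0.0063), while miR-451a gave 0.48 ± 0.32. The call on miR-486a-5p was lost in 1 fit of all libraries (-1.21) and with the products of the locus summed (-0.95), and without KIN astrocytes replicate 3 miR-451a was called at 1.04. Against KIN microglia, where 53.0% were called by edgeR, it called 0 of 2 members and DESeq2 called 0. An unadjusted edgeR p under 0.05 was reached by 1 member, and 3029 of 4880 features had one of at most 0.05. The values were -0.64 ± 0.42 for miR-451a and -1.04 ± 0.45 for miR-486a-5p. Without KIN microglia replicate 1 miR-486a-5p was called at -1.35, and without replicate 2 miR-451a gave 0.36. Between KIN microglia and KIN astrocytes, where 35.3% were called, edgeR called 0 of 2 members, 0 had an unadjusted p under 0.05 and DESeq2 called 0, with 1.03 ± 0.55 for miR-451a and -0.30 ± 0.43 for miR-486a-5p, but without KIN astrocytes replicate 3 miR-451a was called at 1.70. Haemoglobin transcripts were called in KIN neurons, with 5 of 5 tested erythroid features higher there than in KIN astrocytes and 5 of 5 than in KIN microglia. These too passed the count filter only through the neurons, so the tallies were nearly fixed in advance. Scaled to mature miRNA counts, the neuronal values were higher and all were called by edgeR: 1.41 for miR-486a-5p and 3.05 for miR-451a against KIN astrocytes, and 1.08 and 1.44 against KIN microglia. So were 4108 of 5001 features tested against KIN astrocytes and 3649 of 4880 against KIN microglia. That scaling lifted the median feature from 0.06 to 2.70 log2 against KIN astrocytes and from 0.02 to 2.10 against KIN microglia, so only the value of 3.05 lay above the median of its comparison.

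Other blood and vessel markers followed patterns of their own across the fractions. miR-16-5p, miR-92a-3p and miR-25-3p, which red cells share with most tissues, were listed with miR-363-3p and together stood at 606 to 1145 CPM in neurons, 1273 to 3869 CPM in astrocytes and 3968 to 6427 CPM in microglia. In astrocytes 2 of 3 tested were higher in KIN, where 8.18% of all features were called, miR-16-5p by 1.12 ± 0.21 and miR-92a-3p by 1.28 ± 0.16, where miR-451a was not called. The white blood cell miRNAs, led by the pan-leukocyte miR-142a, stood at 2916 to 6145 CPM in microglia, 379 to 758 CPM in neurons and 111 to 190 CPM in astrocytes. In WT neurons against WT microglia, where 28.0% of all features were called, 3 of 4 were lower and 1 was higher. Blood cells and the microglia themselves cannot be told apart as the source of these counts, which was not tested. Platelet transcripts had 0 to 4 counts in every library. Neutrophil transcripts had 0 counts outside microglia, where libraries held 0 to 11, and lymphocyte transcripts had 5 to 14 counts in neuronal and 0 to 3 in glial libraries. The endothelial miR-126a pair stood at 4.94 to 33.3 CPM in neurons and 118 to 563 CPM in the glial fractions, and the mural miRNAs at 25.5 to 98.6 CPM and 60.0 to 317 CPM.

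Across all 18 libraries, the features nearest to miR-451a in level were its own hairpin genes, Mir451a with Pearson r = 0.96 and Mir451b with r = 0.94 on log2(CPM + 1). Outside the erythroid hairpins, the nearest of the 8203 features compared were Igsf3, an immunoglobulin superfamily member (r = 0.82), the ribosomal stalk gene Rplp2 (r = 0.76), 2 copies of tRNA-Leu-CAA (r = 0.76 each) and an unnamed transcript (r = 0.76). mmu-miR-144-5p ranked 333 (r = 0.60) and mmu-miR-486a-5p 443 (r = 0.57). With each group's mean removed, the nearest were the small nuclear RNA Gm24525 (r = 0.80), Wdr12, a ribosome assembly factor (r = 0.79), mmu-miR-486b-5p (r = 0.79), an unnamed transcript (r = 0.78) and mmu-miR-486b-3p (r = 0.77). mmu-miR-486a-5p then ranked 96 (r = 0.63) and mmu-miR-144-5p 1830 (r = 0.30). The haemoglobin transcripts had r of 0.25 to 0.68 across libraries and -0.41 to -0.01 with group means removed. Igsf3 had at most 9 counts in any library, Rplp2 at most 10, Wdr12 at most 7 and the unnamed transcript listed first at most 5. Their r values therefore rest on few reads and were the highest picked from 8203 features. These are descriptions over libraries that differ in depth and in miRNA content, and mmu-miR-144-3p had too few counts to be ranked.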

How the data were processed

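The authors trimmed the small RNA reads with Cutadapt 4.6 and aligned them with Bowtie2 2.4.4 in local mode, in turn, to mature miRNAs, tRNAs, piRNAs, and Ensembl non-coding and coding transcripts of mm39. The deposited values are raw counts per feature from HTSeq 2.0.2, unstranded. The authors' fold changes and p-values, normalised values and other columns were not used, among them 36 per-library columns. Molecular barcode collapsing is described for total RNA libraries only, so read counts may include copies.

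Counts were tested with edgeR 4.0.16 in R 4.3.3 (TMM, quasi-likelihood, at least 5 counts in at least 2 libraries, Benjamini-Hochberg over all features tested). DESeq2 1.42.0 was an alternative. The SE is the log2 fold change divided by the root of F. Tests were checked on simulated counts, in which the changed features were well covered, with large changes and a fixed dispersion. That check does not extend to members with few counts or to libraries that stood apart. Group and number come from the sample titles, which do not say that libraries come from separate animals, so p-values measure the spread between these libraries. Mature sequences come from the deposited table, hairpins from RefSeq (3 matched), positions from GENCODE on GRCm39. The 4 members were named by choice, and of the gene lists each tested member that passed was eligible to be named. Members and lists were chosen with earlier results of these data known. The neuron, oligodendrocyte and endothelial lists served to check fractions only. Endothelial transcripts summed to 13.9 to 125 CPM over all libraries. Oligodendrocyte miRNAs summed to 830.4 to 2148 CPM in astrocytes and 0 to 74.1 CPM elsewhere.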

Additional observations from a re-analysis of the deposited data

Results flagged for a closer look

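The KIN effect was called different between neurons and microglia for both erythroid miRNAs that could be tested in every fraction, by the interaction term of a fit of all 18 libraries. For mmu-miR-451a the neuronal effect minus the microglial effect was -3.32 on the log2 scale. For mmu-miR-486a-5p it was -3.78. Both edgeR calls ended when KIN microglia replicate 2 was left out, at -2.31 and -3.07. Calls over all features then fell from 101 of 8204 to 15 of 8074. Both member calls also ended without WT microglia replicate 1 or 3, or KIN neurons replicate 3, and 1 of them ended without KIN neurons replicate 1 or 2. The entry mmu-miR-486b-5p, identical in sequence to mmu-miR-486a-5p, was not called (edgeR adjusted p = 0.10).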

How the results depend on the processing

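Depth limited the miR-144 products, with 42 counts in all, and every comparison of mmu-miR-486a-5p in microglia, where the WT libraries held 3 to 10 counts. The cause of the changes below was not tested. In astrocytes, scaling to mature miRNA turned the KIN over WT value to -0.090 for miR-451a and -0.46 for miR-486a-5p. In microglia DESeq2, no filter on low counts and 1 fit of 18 libraries each called 2 members. The values were 1.80, 1.80 and 1.83 for miR-451a and 2.23, 2.23 and 2.27 for miR-486a-5p. Over all features these settings called 379 of 4938, 426 of 53521 and 400 of 4940. DESeq2 on sums of all products of a locus, added after seeing the data, also called both, at 1.62 and 1.84, among 379 of 4931 features called. Scaling to mature miRNA called 2 members for WT neurons against WT astrocytes, where 2908 of 5916 features were called. It called 2 for KIN neurons against KIN astrocytes (4108 of 5001 features) and 2 against KIN microglia (3649 of 4880 features). So large a share of all features was called that these member calls say little about the members. The scaling turned the sign of miR-486a-5p in KIN neurons to 1.41 against KIN astrocytes and 1.08 against KIN microglia, and of miR-451a to 1.44 against KIN microglia. It also turned miR-451a to 0.0098 between WT microglia and WT astrocytes and miR-486a-5p to 0.040 between KIN microglia and KIN astrocytes. No filter called 1 member and 1564 of 53395 features between KIN microglia and KIN astrocytes. The 1 fit of 18 libraries called 0 members and 2195 of 5001 features between KIN neurons and KIN astrocytes. With both libraries highest in miR-451a left out, chosen after seeing the data, 0 members were called for the KIN effect in neurons minus that in microglia.

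Leaving out 1 library at a time gave, for KIN over WT, -0.24 to 0.77 (miR-451a) and -0.075 to 0.53 (miR-486a-5p) in astrocytes and 0.87 to 2.11 and 1.58 to 2.97 in microglia, with 0 to 2 members called there. Calls over all features moved too, in microglia from 0 of 4296 without WT replicate 1 to 940 of 4856 without WT replicate 2. With the locus products summed, the ranges were -0.25 to 0.63 and -0.20 to 0.40 in astrocytes and 0.72 to 1.93 and 0.85 to 2.20 in microglia, with -0.18 and -0.046 among the astrocyte values of miR-486, and the miR-144 locus in neurons reached 0.31 without WT neurons replicate 2. For WT microglia against WT astrocytes miR-451a ran from -0.43 to 0.22, and for KIN neurons against KIN microglia from -0.96 to 0.36. Members called ran from 0 to 1 for WT neurons against WT astrocytes, 1 to 2 against WT microglia, 0 to 1 for KIN microglia against KIN astrocytes, 1 to 2 and 0 to 1 for KIN neurons against KIN astrocytes and KIN microglia, and 0 to 2 for the KIN effect in neurons minus that in microglia.

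The replicate numbers were not shown to pair the samples. Over 45 pairs of same-numbered libraries the correlation of their deviations ran from -0.21 to 0.33, and in 16 of them a library was most like the one with its own number. A fit with the replicate block changed no call on a member, and gave 1.51 and 2.18 in microglia, -1.37 and -1.45 in neurons and -2.95 and -3.59 for the KIN effect in neurons minus that in microglia, for miR-451a and miR-486a-5p.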
